A study of Homo sapiens with 3 samples.

Results

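The IFIT and IFITM genes are 2 families of antiviral genes that interferon switches on, and their expression was followed here after silencing of the transcription factor E2F1 in prostate cancer cells. The members were taken by gene symbol: IFIT1, IFIT2, IFIT3 and IFIT5 of the first family, and IFITM1, IFITM2 and IFITM3 of the second, which makes 7 of the 22613 genes listed in each library. The cells were LNCaP-abl, a line derived from LNCaP prostate cancer cells that grows without androgen. All were kept in medium with charcoal-stripped serum, and RNA was taken 72 h after lipid transfection. Cells of the siE2F1 group received a pool of siRNAs against E2F1 (1 library), and cells of the control group received control siRNA (2 libraries, control 0 and control 1). No value of siE2F1 therefore has a replicate, and whether the controls came from separate cultures is not labelled. The spread behind each p-value is that between these 2 controls alone and may be technical. In bulk RNA, a change in the number of expressing cells and a change in RNA per cell cannot be told apart.

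IFIT proteins are built of tetratricopeptide repeats and lie in the cytosol. IFIT1 binds viral RNA whose cap lacks the host's methyl marks and keeps it from being translated, IFIT2 and IFIT3 join it in a complex, and IFIT5 binds RNA with a phosphate at its 5′ end. IFITM proteins are small membrane proteins that hinder the fusion of viral and cellular membranes, IFITM1 mainly at the cell surface and IFITM2 and IFITM3 in endosomes. Epithelial cells make a little of both families at rest. Interferon raises them through a complex that holds STAT2 and IRF9 and binds the interferon-stimulated response element (ISRE) in their promoters.

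The promoter sequences are shown because this element is what the members with an entry in the RefSeq promoter table have in common. The table (build GRCh38.p14) held 6 windows of 300 bases for 5 of the 7 members. IFIT2 and IFITM2 had no match by symbol. Below are the 160 bases before each annotated start, 5′ to 3′ on the gene's own strand, with matches to the ISRE core GAAANNGAAA or its reverse complement TTTCNNTTTC in capitals.
IFIT1, chr10:89392463-89392622, plus strand: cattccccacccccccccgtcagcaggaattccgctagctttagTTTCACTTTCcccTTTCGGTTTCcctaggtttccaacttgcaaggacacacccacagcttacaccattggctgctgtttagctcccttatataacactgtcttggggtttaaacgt
IFIT3, first start, chr10:89327837-89327996, plus strand: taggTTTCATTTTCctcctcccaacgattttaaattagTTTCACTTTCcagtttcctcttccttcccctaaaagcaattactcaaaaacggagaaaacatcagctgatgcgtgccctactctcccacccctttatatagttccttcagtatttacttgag
IFIT3, second start, chr10:89332369-89332528, plus strand: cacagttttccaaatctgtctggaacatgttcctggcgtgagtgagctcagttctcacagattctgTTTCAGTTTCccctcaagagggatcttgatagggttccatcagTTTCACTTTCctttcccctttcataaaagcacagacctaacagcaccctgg
IFIT5, chr10:89414408-89414567, plus strand: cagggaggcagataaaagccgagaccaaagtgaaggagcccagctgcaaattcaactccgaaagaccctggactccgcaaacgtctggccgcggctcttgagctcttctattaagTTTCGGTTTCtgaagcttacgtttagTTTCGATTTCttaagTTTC
IFITM1, chr11:313880-314039, plus strand: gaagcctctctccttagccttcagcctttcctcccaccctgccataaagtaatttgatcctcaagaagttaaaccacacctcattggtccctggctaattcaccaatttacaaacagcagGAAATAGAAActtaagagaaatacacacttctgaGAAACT
IFITM3, chr11:320861-321020, minus strand: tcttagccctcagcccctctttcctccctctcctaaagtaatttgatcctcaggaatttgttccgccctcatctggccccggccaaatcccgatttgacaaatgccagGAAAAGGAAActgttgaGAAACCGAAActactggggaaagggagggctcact

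Each of these windows held at least 2 ISRE matches, and the IFIT5 window held 3. The last match of IFIT5 and the last of IFITM1 run across the start site, so only their first letters stand at the end of the sequences above. Of all 35116 windows in the table, 3.57% held at least 1 match, 0.259% held 2 or more and 0.037% held 3 or more. The motif that E2F factors recognise, searched as TTTGGCGC, TTTCCCGC, TTTCGCGC and TTTGCCGC on both strands, had no match in the 6 member windows and a match in 3.31% of all windows. The gamma-activated site TTCNNNGAA, an element of the interferon gamma response, reads alike on both strands apart from its middle letters and matched once, in the IFITM1 window, where it overlaps an ISRE match (7.66% of all windows held one). A match describes the letters of a window and does not show that a factor binds there.

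**Figure D1:**
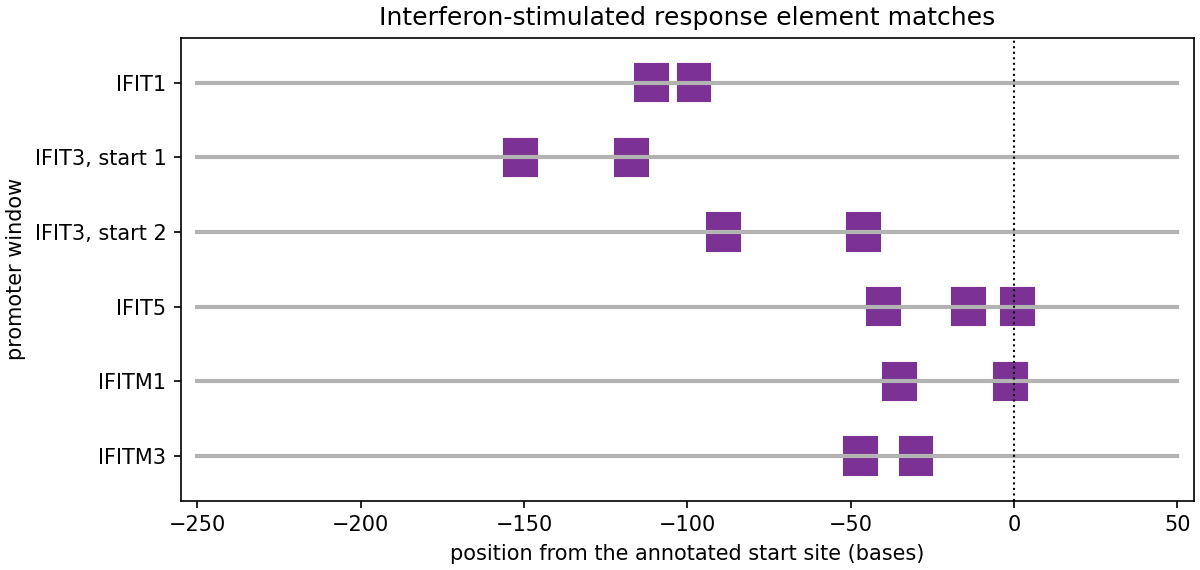
Positions of ISRE core matches (purple boxes, to scale) in the 6 promoter windows of 5 members; the x axis gives the distance from the annotated start site in bases and the dotted line the start itself. The IFIT1 matches lie at -116 to -94, and the IFIT5 matches from -45 across the start to 6.

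Each library listed 22613 genes as normalised FPKM (fragments scaled to transcript length and to library size), so levels can be compared between genes. Read counts were not given and depth is unknown. The fit covered 14401 genes whose mean reached 1 FPKM, all 7 members among them. E2F1 itself fell to 1.68 FPKM in siE2F1, against 10.6 and 10.6 FPKM in the controls (log2 fold change -2.12, limma adjusted p = 0.0311). That call was lost with a pseudocount of 0.1 FPKM (-2.59, adjusted p = 0.0601) and with no filter (adjusted p = 0.159). Markers of prostate epithelium were present, with FOLH1 at 338.9 FPKM in siE2F1 against 317.6 and 338.9 FPKM in the controls and KRT8 at 159.0 FPKM against 110.6 and 121.0 FPKM, while KLK3, which encodes PSA, was at 0.156 FPKM against 0.152 and 0.0531 FPKM. TMPRSS2 was at 14.6 FPKM against 20.5 and 19.5 FPKM and HOXB13 at 94.6 FPKM against 122.9 and 118.9 FPKM, both below both controls. Of 9 tested markers of this kind 5 were above both controls and 2 below. Limma called 0 (4 at an unadjusted p under 0.05, 28.4% in the whole fit). Without small RNA genes TMPRSS2 was called lower (-0.42, adjusted p = 0.0498). Of 12 leukocyte markers 5 were listed. Their summed level was 15.2 FPKM in siE2F1 against 14.5 and 14.7 FPKM in the controls, and PTPRC, the defining marker CD45, was at 0.423 FPKM against 0.842 and 1.15 FPKM, too low to test. Of the 4 tested leukocyte markers 3 were above both controls, CD8A (3.57 FPKM against 2.52 and 2.87 FPKM), CD68 (5.67 FPKM against 5.47 and 5.29 FPKM) and LYZ (3.84 FPKM against 3.66 and 3.51 FPKM), and limma called 0 (0 at an unadjusted p under 0.05). The 5 listed stromal and endothelial markers of 10 summed to 3.23 FPKM against 4.21 and 3.74 FPKM. None of the listed markers in either list was at 0 in all libraries, and their part in the results was not tested.

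All 7 members were higher in siE2F1 than in either control, and IFIT1 and IFIT2 rose past the test over all genes. Of the genes in the fit, 43.7% stood above both controls. With limma and Benjamini-Hochberg adjustment 2 of the 7 members were called higher and 0 lower, where 0.312% of all genes tested were called higher and 0.104% lower. At an unadjusted p under 0.05 there were 6 members, all but IFIT5 and all higher, where 13.5% of all genes in the fit passed this and were higher and 28.4% passed it in either direction. When small RNA genes were left out of the fit, 5 of the 7 were called higher, with IFIT3, IFITM1 and IFITM3 joining, where 4.17% of genes were called higher and 6.36% lower. At least 2-fold above both controls on the log2(FPKM + 1) scale were 4 members (IFIT1, IFIT2, IFIT3 and IFITM1), against 0.743% of all genes tested. The median log2 fold change of the 7 members was 1.24, and that of all genes tested 0.01.

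IFIT1, the sensor of undermethylated caps, was at 31.0 FPKM in siE2F1, against 2.88 FPKM in control 0 and 2.81 FPKM in control 1. The siE2F1 value stood 10.8 and 11.03 times above the 2 controls, which lay within 0.03 log2 units of each other. All fold changes are differences in log2(FPKM + 1), and IFIT1 rose by 3.06 (SE 0.06, 95% interval 2.85 to 3.27, limma adjusted p = 0.0191). IFIT1 held rank 55 among the 14401 genes tested when ordered by this change. With no filter on mean FPKM the same change had an adjusted p of 0.0982.

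IFIT2, which joins IFIT1 in its RNA-binding complex and is also linked to cell death, had 21.95 FPKM in siE2F1 against 2.93 and 3.01 FPKM in the controls. Both controls were low and close together, at 7.50 and 7.29 times below siE2F1. IFIT2 rose by 2.53 (SE 0.06, 95% interval 2.32 to 2.75, limma adjusted p = 0.0232). The call was lost with a pseudocount of 0.1 FPKM (adjusted p = 0.0577) and with no filter (adjusted p = 0.131).

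IFIT3, the partner that stabilises IFIT1, was at 14.5 FPKM in siE2F1, against 1.95 FPKM in control 0 and 1.66 FPKM in control 1. The single siE2F1 value of IFIT3 lay above both controls, and its ratio to each was 7.46 and 8.77. Its log2 fold change of 2.47 (SE 0.10, 95% interval 2.13 to 2.82) was close to that of IFIT2, but the controls lay 0.15 log2 units apart and the limma adjusted p was 0.0654. Without small RNA genes it passed (adjusted p = 0.0156).

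IFIT5, which binds RNA with 5′ phosphates and precursors of transfer RNA, stood apart from the other 3 by its values. It was at 5.49 FPKM in siE2F1 against 4.56 and 5.15 FPKM in the controls. The siE2F1 library was the highest by a margin no wider than the gap between the controls. The log2 fold change was 0.15 (SE 0.10, 95% interval -0.19 to 0.49, limma adjusted p = 0.402), and 29.5% of all genes tested had a change at least as high. An increase of up to 0.49 log2 units is inside that interval, so a small rise cannot be told from none. The upper end lies under the lower ends of the intervals of IFIT1, IFIT2 and IFIT3; the difference between these genes was not tested.

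**Figure D2:**
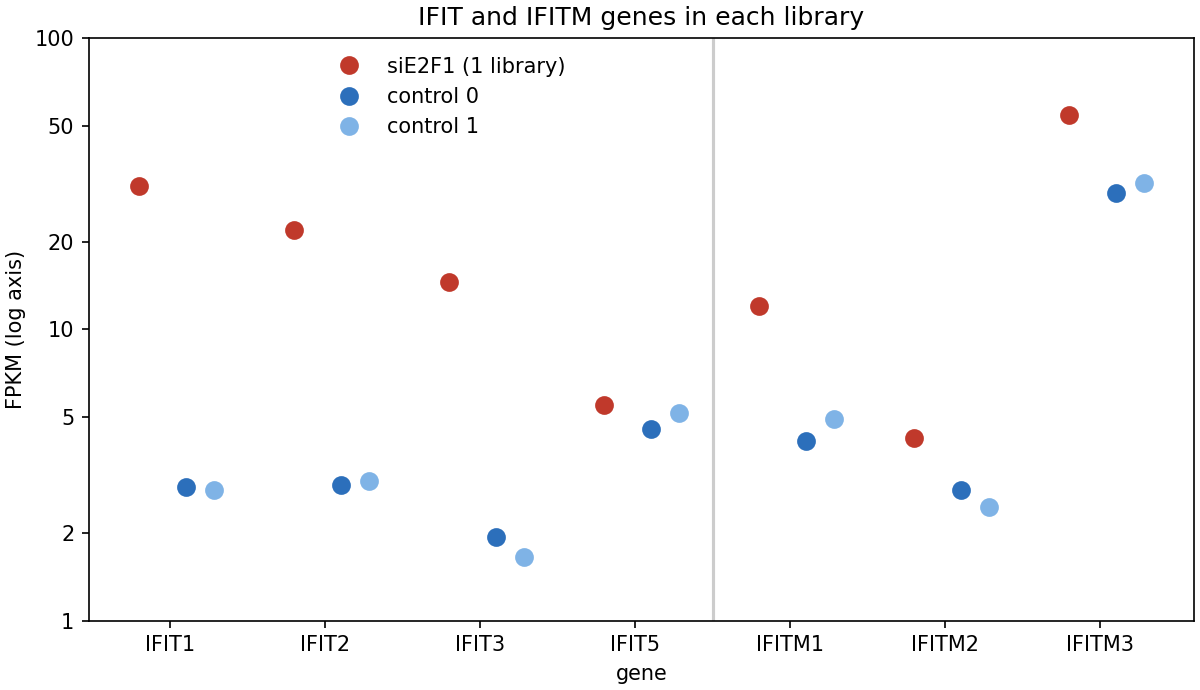
FPKM (log axis) of the 7 members in the siE2F1 library (red) and in control 0 and control 1 (dark and light blue); each point is 1 library. IFIT1, IFIT2 and IFIT3 lie far above their controls in siE2F1, at 31.0, 21.95 and 14.5 FPKM, and IFIT5 lies at 5.49 FPKM beside controls of 4.56 and 5.15 FPKM.

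The order of levels within the IFIT family differed between the groups. In siE2F1 it ran IFIT1, IFIT2, IFIT3 and IFIT5 from high to low, whereas in both controls it ran IFIT5, IFIT2, IFIT1 and IFIT3. The 4 genes summed to 73.0 FPKM in siE2F1 against 12.3 and 12.6 FPKM in the controls. IFIT1 made up 42.5% of that sum in siE2F1, against 23.4% and 22.2% in the controls. IFIT5 made up 7.52% in siE2F1, against 37.0% and 40.8% in the controls. IFIT2 gave 30.1% against 23.8% and 23.8%, and IFIT3 gave 19.9% against 15.8% and 13.1%. These shares have no spread in siE2F1, which is 1 library.

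Turning to the IFITM family, IFITM3, the endosomal member known for blocking influenza virus, was at 54.2 FPKM in siE2F1 against 29.4 and 31.8 FPKM in the controls. It was the most abundant of the 7 members in every library, and its single siE2F1 value lay above both controls. Its log2 fold change was 0.81 (SE 0.08, 95% interval 0.52 to 1.09, limma adjusted p = 0.111; adjusted p = 0.0325 without small RNA genes).

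IFITM1, the member of the cell surface, was at 12.01 FPKM in siE2F1, against 4.15 FPKM in control 0 and 4.92 FPKM in control 1. It lay 2.89 and 2.44 times above the 2 controls, the widest step of its family. The log2 fold change was 1.24 (SE 0.12, 95% interval 0.82 to 1.65), and the limma adjusted p was 0.111, or 0.0296 once small RNA genes were left out.

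IFITM2, close in sequence to IFITM3, was the lowest of the family in each library, at 4.24 FPKM in siE2F1 against 2.81 and 2.46 FPKM in the controls. Its log2 fold change of 0.53 (SE 0.10, 95% interval 0.19 to 0.87) did not pass over all genes tested (limma adjusted p = 0.127), nor without small RNA genes (adjusted p = 0.0541).

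In contrast to the IFIT genes, the IFITM genes kept the same order in all 3 libraries, with IFITM3 first, then IFITM1, then IFITM2. Their sum was 70.5 FPKM in siE2F1 against 36.4 and 39.2 FPKM in the controls, 1.94 and 1.80 times higher. IFITM3 took 77.0% of this sum in siE2F1 against 80.9% and 81.2% in the controls, and IFITM1 took 17.0% against 11.4% and 12.6%. The median log2 fold change was 0.81 for the 3 IFITM genes and 2.502 for the 4 IFIT genes; no test of this difference was made.

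**Figure D3:**
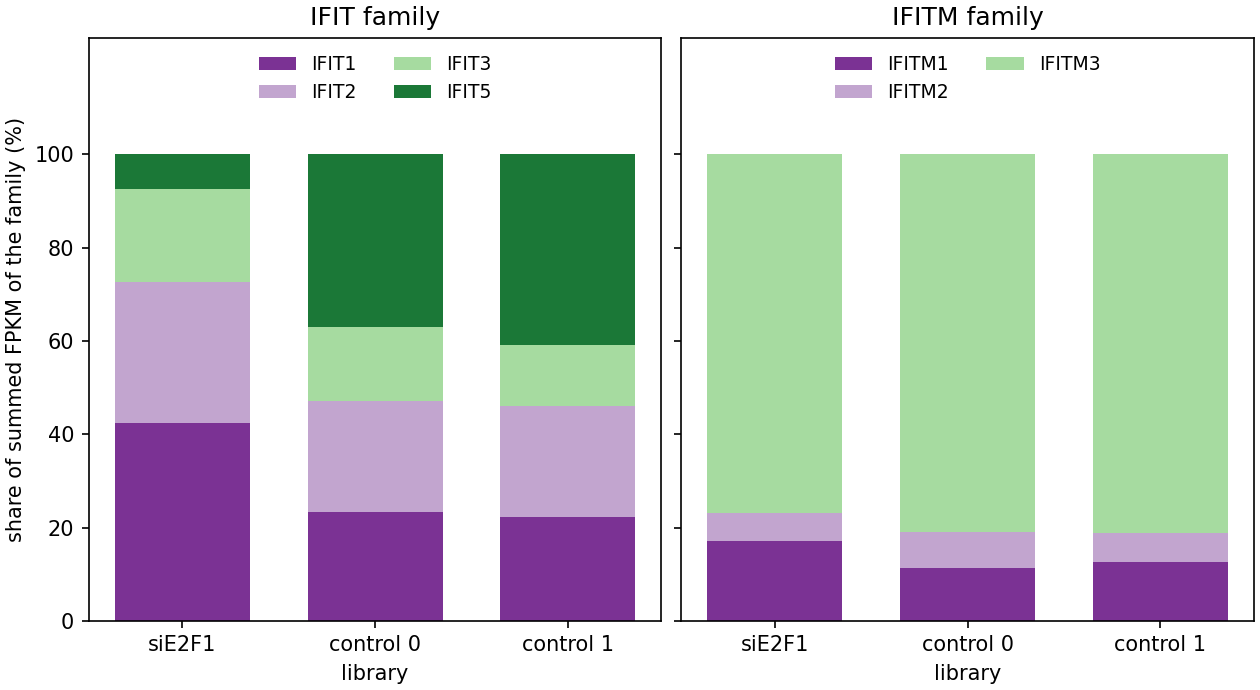
Share of each member in the summed FPKM of its family (y axis, %), by library, with siE2F1 at the left of each panel. The IFIT5 part is 7.52% in siE2F1 against 37.0% and 40.8% in the controls, while IFITM3 takes 77.0% to 81.2% of its family in every library.

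Across both families the levels in siE2F1 ran from IFITM3 through IFIT1, IFIT2, IFIT3, IFITM1 and IFIT5 to IFITM2. In the controls the order of means was IFITM3 (30.6 FPKM ± 1.70, SD, n = 2), IFIT5 (4.86 ± 0.419), IFITM1 (4.54 ± 0.546), IFIT2 (2.97 ± 0.0602), IFIT1 (2.85 ± 0.0509), IFITM2 (2.63 ± 0.246) and IFIT3 (1.80 ± 0.205). The values of IFIT5 and IFITM1 overlapped between the controls, and the lower value of IFIT1 and the higher of IFITM2 were both 2.81 FPKM. The absolute difference between the controls was 0.03 to 0.20 log2 units over the members, and for each of them it was under the 95th percentile of genes of like level (0.30 to 0.50). For IFIT1 and IFIT2, the members called over all genes tested, it was also under the median of such genes (0.08). For the other members it was above that median (0.08 to 0.09).

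**Figure D4:**
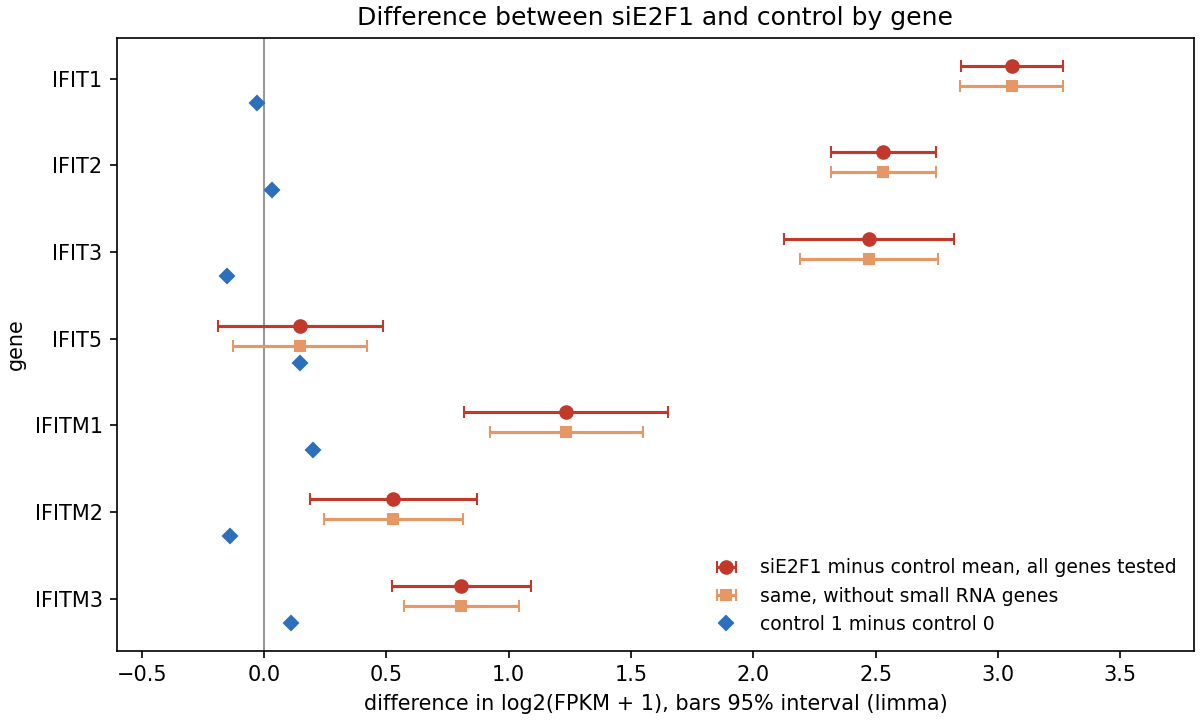
Difference in log2(FPKM + 1) between siE2F1 and the mean of the controls for each member, with limma's 95% interval over all genes tested (red circles) and without small RNA genes (orange squares); blue diamonds give control 1 minus control 0. The IFIT5 interval, -0.19 to 0.49, includes 0, and those of the other 6 members do not.

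The IFITM genes share stretches of sequence, so some reads cannot be assigned to a single gene. Over the coding sequence of GENCODE release 29 transcripts, IFITM2 and IFITM3 were identical at 93.3% of aligned positions, against 57.5% to 67.4% among the 4 IFIT members. IFITM1 was identical to IFITM2 at 66.2% and to IFITM3 at 67.3%, inside the IFIT range, with gaps counted as differences. With gap positions left out these were 85.5% and 87.6%, against 61% to 73% among the IFIT members. The first coding bases of IFITM2 and IFITM3 on chromosome 11 (GRCh38, minus strand for IFITM3 and plus strand for IFITM2) are shown, with differing bases in capitals. They differ at 11 of 90 aligned positions, a larger share than over the whole coding sequence. The capitals CTT of IFITM3 are bases that IFITM2 lacks.
IFITM2: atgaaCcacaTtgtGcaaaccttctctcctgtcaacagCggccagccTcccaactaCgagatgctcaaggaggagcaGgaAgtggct
IFITM3: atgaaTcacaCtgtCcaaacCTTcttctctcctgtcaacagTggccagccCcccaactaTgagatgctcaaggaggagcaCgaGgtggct

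Of all stretches of 50 bases in the transcript used, 42.3% recur in the transcript of another gene for IFITM1, 20.3% for IFITM3 and 15.8% for IFITM2. For IFITM1 the gene that shared most was IFITM2, with 39% of the stretches. For IFIT1 and IFIT3 the share was 2.08% and 3.84%, and for IFIT2 and IFIT5 it was 0%. An IFITM2 transcript in that annotation also reaches into IFITM1, so that 32.5% of the exonic bases of IFITM1 belong to both. Stretches that IFITM1 shares with IFITM2 through this overlap were not separated from those shared through likeness of sequence. How Cufflinks divided such reads is not given, so the single values of IFITM1, IFITM2 and IFITM3 are uncertain. TruSeq RNA v2 libraries carry no strand mark. LIPA, a lysosomal lipase gene that runs in the opposite direction through the IFIT cluster, shares 1.58% of the exonic bases of IFIT2 and none of IFIT1 or IFIT3. A noncoding gene on the same strand as IFIT2, AL353751.1, shares 8.68% of the exonic bases of IFIT2, and reads there cannot be assigned to one of them with certainty. A long noncoding gene on the other strand shares 21.3% of those of IFITM3.

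Relatives and neighbours of the 2 clusters were looked at next. IFIT1B, a relative of IFIT1 with 78.3% identity over the coding sequence, was at 0.545 FPKM in siE2F1 against 0.0565 and 0.0572 FPKM in the controls, too low to test; 1.98% of its stretches of 50 bases also occur in IFIT1. IFITM10 was at 0.0364 FPKM against 0.0442 and 0.0453 FPKM. Of 12 tested genes near the clusters, limma called 0 over all genes tested (3 at an unadjusted p under 0.05, 28.4% in the whole fit). Without small RNA genes LIPA, at 30.8 FPKM in siE2F1 against 21.4 and 20.7 FPKM, was called higher (log2 fold change 0.53, adjusted p = 0.0388). KIF20B, a kinesin needed for cell division, was at 6.81 FPKM against 9.55 and 9.88 FPKM and was called lower there (-0.46, adjusted p = 0.0436). SIGIRR (-0.25, adjusted p = 0.159) and ATHL1 (0.17, adjusted p = 0.252) followed in size, and the median of the 12 was 0.02.

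The genes whose step between siE2F1 and each control was most like that of a member were picked among 12313 named genes by the distance between their pairs of log2 differences. All of these values come from the same 3 libraries. Nearest to IFIT1 were IFI6 (distance 0.22), RSAD2 (0.38) and IFIT2 (0.74). IFIT2 and IFIT3 were each other's nearest gene (distance 0.15), and no other gene lay within 0.25 of either. RARRES3, a phospholipase, followed for both (0.32 and 0.43). IFITM1 had GLYATL1 (0.07), ACPP (0.13) and STX19 (0.15) as its nearest, and 8 genes within 0.25. Genes with a pattern like the other members were common, 100 within 0.25 of IFITM3, 692 within 0.25 of IFITM2 and 4643 within 0.25 of IFIT5.

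The pathway that leads to these genes was described from its ligands to its targets, in lists chosen with results of these data known. Of the interferon genes 4 were listed, each below 0.5 FPKM and not tested. IFNB1, the interferon made first by most infected cells, was at 0.0656 FPKM in siE2F1 against 0 and 0.0486 FPKM in the controls. IFNL1, which signals mainly to epithelial cells, was at 0.495 FPKM against 0.127 and 0.0836 FPKM. IFNL2 (0.171 FPKM against 0 and 0.0555 FPKM) and IFNL3 (0.174 FPKM against 0 and 0.0708 FPKM) are near-identical genes, and reads may be split between them. The list held 24 interferon genes, and the others had no entry by symbol in the libraries.

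Of 9 tested receptor and JAK kinase genes, limma called 0, with or without small RNA genes. With them 2 were at an unadjusted p under 0.05 (28.4% in the whole fit). IFNAR1 and IFNAR2, the chains of the type I receptor, were at 12.4 FPKM in siE2F1 against 13.02 and 13.01 FPKM, and at 7.15 FPKM against 8.17 and 8.46 FPKM. IFNGR1 and IFNGR2, the chains of the interferon gamma receptor, had log2 fold changes of 0.41 (adjusted p = 0.121) and 0.26 (adjusted p = 0.166), and the list's median was 0.09.

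Among 8 transcription factor genes limma called 0 over all genes tested, with 4 at an unadjusted p under 0.05. IRF9, the DNA-binding partner of STAT2, was at 11.2 FPKM in siE2F1 against 4.29 and 4.13 FPKM in the controls (log2 fold change 1.23, adjusted p = 0.0945; 0.0221 without small RNA genes). STAT2 was at 22.4 FPKM against 16.0 and 13.2 FPKM (0.59, adjusted p = 0.151). IRF3, which can act on IFIT genes without interferon, was at 28.3 FPKM against 32.8 and 33.3 FPKM (-0.22, adjusted p = 0.17), and IRF1 (0.002) and IRF7 (-0.03) lay between their controls. The median of the 8 was 0.07.

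Of 10 tested sensor and adaptor genes 9 were above both controls (43.7% in the whole fit), and their median was 0.40. Over all genes tested limma called 0, with 4 at an unadjusted p under 0.05 (28.4% in the whole fit). Without small RNA genes it called 4 higher. DDX58, the RNA helicase RIG-I, was at 5.25 FPKM in siE2F1 against 2.51 and 2.27 FPKM (0.88), and IFIH1, the helicase MDA5, at 5.62 FPKM against 3.17 and 3.36 FPKM (0.63). ZNFX1 (0.53) and the kinase gene IKBKE (0.52) were the other two. TLR3, an endosomal receptor of double-stranded RNA, was at 2.61 FPKM against 1.18 and 1.75 FPKM (0.56, adjusted p = 0.207). Of 8 tested negative regulators 0 were called over all genes tested with limma (4 at an unadjusted p under 0.05, 28.4% in the whole fit). PIAS1 (0.49) and PIAS4 (0.45) were called higher without small RNA genes, while IRF2BP1 had -0.32 (adjusted p = 0.171) and USP18, which limits signalling at the type I receptor, was at 11.2 FPKM against 13.3 and 13.3 FPKM (-0.22, adjusted p = 0.162).

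Of 26 tested interferon targets outside the 2 families 23 were above both controls and 2 below (39.7% in the whole fit), with a median of 0.41. Limma called 3 higher over all genes tested, OASL (3.93), IFI6 (2.93) and RSAD2 (2.79), and 11 without small RNA genes, and 0 lower in either. IFI27, IFI44 and BST2 reached the filter only through siE2F1, with control means of 0.765, 0.344 and 0.607 FPKM. Their place above both controls was thus set by the filter, and they count in the 23, the median and the 11. Of the tested genes in that list, OASL alone had a larger log2 fold change than IFIT1. ISG15, a ubiquitin-like modifier, had 2.15, and IFI27, whose controls were far apart at 1.18 and 0.351 FPKM, had 2.64. MX1, another antiviral target, was at 0.968 FPKM against 1.11 and 1.04 FPKM (-0.08).

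Genes whose products meet IFIT or IFITM proteins gave smaller steps. Tested eIF3 subunit genes, which encode the translation initiation factor that IFIT proteins bind, numbered 12. Of these 7 were above both controls and 5 below, with a median of 0.07. Limma called 0 in each fit (3 at an unadjusted p under 0.05 over all genes tested, 28.4% in the whole fit). EIF3E was at 307.9 FPKM in siE2F1 against 239.1 and 254.3 FPKM (0.32, adjusted p = 0.152), and EIF3K at 103.9 FPKM against 134.2 and 132.5 FPKM (-0.36, adjusted p = 0.121). Of 10 genes for IFITM partners or endosomal proteins limma called 0 over all genes tested. At an unadjusted p under 0.05 there were 3 (28.4% in the whole fit). CD9, a tetraspanin of the cell surface, was at 306.5 FPKM against 196.6 and 216.1 FPKM and was called higher without small RNA genes (0.57, adjusted p = 0.0409). NPC1, an endosomal cholesterol transporter, had 0.58 (adjusted p = 0.172), OSBP, a sterol carrier, -0.44 (adjusted p = 0.122) and ZMPSTE24, a protease that IFITM proteins bind, 0.19. Of 14 class I antigen presentation genes 4 had an entry by symbol and were tested, 3 of them below both controls (39.7% in the whole fit). These were PSMB10 (-0.12), PSME1 (-0.37) and PSME2 (-0.07), and limma called 0 lower in either fit. B2M, the light chain, was at 473.4 FPKM against 304.6 and 341.7 FPKM (0.55, adjusted p = 0.13, or 0.0475 without small RNA genes).

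**Figure D5:**
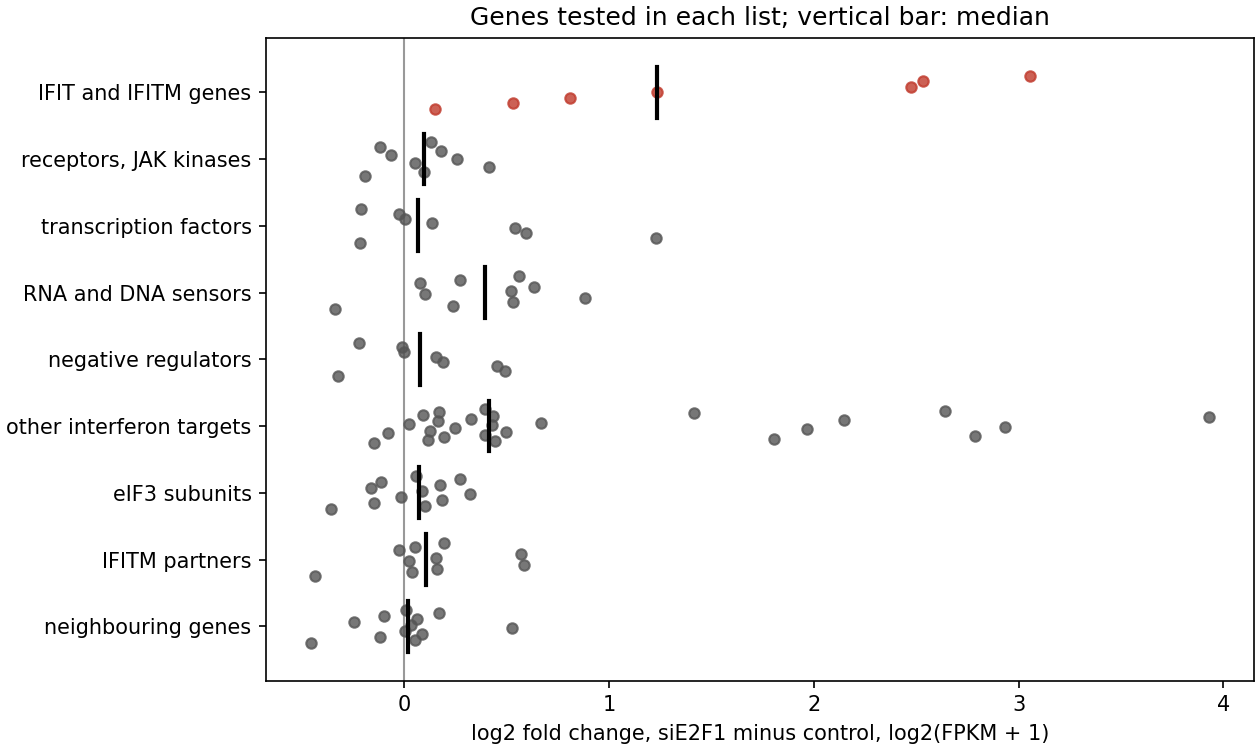
Log2 fold changes of siE2F1 against control on the log2(FPKM + 1) scale for the 7 members (red) and the tested genes of 8 lists (grey), 1 point per gene, with the median of each list as a vertical bar. The medians are 1.24 for the members, 0.41 for other interferon targets and 0.40 for sensors, and 0.02 to 0.10 for the other lists.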

How the data were processed

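Titles of the samples gave the groups and the control numbers 0 and 1. The kit was TruSeq RNA v2, per the labels' protocols. TopHat2 2.0.4, Cufflinks 2.0.2 and hg19 are named in the submitters' processing notes; not given in the sources used here are parameters and annotation. The authors deposited log2 FPKM for every gene, with a minimum of log2 of 0.1. FPKM was taken as 2 to that power minus 0.1, as if 0.1 had been added. After sorting, the libraries differ from each other by no more than 0.0653 log2 units, a pattern of quantile normalization, which no source states; a change shared by most genes would not show. Read counts were not given, so no count test was run.

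The fit took genes averaging 1 FPKM or more over the 3 libraries, so a gene can pass through siE2F1 alone. Values were on log2(FPKM + 1), which understates changes of low genes. It used limma 3.58.1 in R 4.3.3 (empirical Bayes with a mean-variance trend, two-sided, Benjamini-Hochberg over all genes tested, threshold 0.05). There is 1 residual degree of freedom, from the controls, and siE2F1 is taken to vary as they do. The step was tested on simulated data in which siE2F1 varied as the controls did, so this could not check that assumption. Small RNA genes are those with symbols that begin with SNOR, MIR, RNU or SCARNA, without their host genes. The members, the lists, the rule for named genes (up to 4 per list, called genes first and then by size of change, genes needed for the order of the pathway, and 3 nearest genes per member) and the fit without small RNA genes were chosen with earlier results of these data known. FOLH1, KLK3, HOXB13, PTPRC, MX1, ISG15, IKBKE, IRF1 and IRF7 are named beyond the sizes in that rule, after their values were seen. Motifs were searched in RefSeq windows of 250 bases before to 50 after each start. Shared stretches were sought in GENCODE release 29 transcripts, and coding sequences were aligned globally with Biopython 1.88. Some genes are counted in their lists but not reported here by name.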

Additional observations from a re-analysis of the deposited data

How the results depend on the processing

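The settings were a pseudocount of 0.1 FPKM, no filter, a mean of at least 5 FPKM (which leaves out IFITM2), a common median, quantile normalization, no mean-variance trend, no small RNA genes, the minimum read as a floor, and each control left out, the last as values with no test. Every member was higher in siE2F1 under each setting that held it, and most settings could not have changed this direction. The filters, the trend and the small RNA genes do not enter the log2 fold change. A pseudocount, a floor or a left-out control cannot reverse a gene that is above both controls. Log2 fold changes ran from 3.02 to 3.40 for IFIT1 and from 0.08 to 0.22 for IFIT5. IFIT1 lost its call with no filter (3.06, adjusted p = 0.0982), and IFIT2 with no filter (2.53, adjusted p = 0.131) and with a pseudocount of 0.1 (2.85, adjusted p = 0.0577). Without small RNA genes IFIT3 (2.47), IFITM1 (1.24) and IFITM3 (0.81) gained a call. The members called higher were thus 1 with a pseudocount of 0.1, 0 with no filter and 5 without small RNA genes, against 2. Over the fixed lists, without the members, 3 genes were called higher and 0 lower; it was 1 higher with a pseudocount of 0.1, 0 with no filter, and 23 higher and 2 lower without small RNA genes. Calls of E2F1, OASL, IFI6 and RSAD2 were each lost with no filter, those of E2F1 (adjusted p = 0.0601), IFI6 (0.0744) and RSAD2 (0.0601) also with a pseudocount of 0.1, that of RSAD2 at 5 FPKM (0.0636), and that of IFI6 with no trend (0.0503). The cause of these changes was not tested. No paired analysis was possible because siE2F1 has 1 library.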
